A study of Vitis riparia with 12 samples.

Results

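In Vitis riparia vines under water deficit (WD), 66 genes differed from well-watered controls (C) in opposite directions in root tips and in shoot tips. Of these, 11 were lower in WD root but higher in WD shoot, and 55 were higher in WD root and lower in WD shoot. The members were selected on their measured counts, scaled to a common total of reads on genes per library (CPM). A gene needed a mean CPM of at least 1 in both C groups, no overlap of WD and C libraries in either organ, and a mean CPM at least 1.5-fold apart in each organ, with opposite signs. Of the 29966 genes in the count table, 16464 had the minimum CPM, and by the same limits 312 were higher in WD and 250 lower in WD in both organs. Because these values chose the members, the WD and C values below are a description and no test of a member rests on them.

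WD vines received no water for 14 d and C vines were watered daily. The 4 groups were WD root and C root, WD shoot and C shoot, with 3 replicates each, and each replicate combined 3 potted, spur-pruned vines of 1 accession that had been root pruned and repotted after cold storage. Root tips and shoot tips hold several cell types, so a lower value can be fewer cells of a type or less RNA per cell, which cannot be told apart in these data. Reads of V. riparia were aligned to the PN40024 genome of V. vinifera, so genes that differ between the species can be undercounted. Per the paper's methods, root and shoot RNA was extracted by different protocols. A difference in level between organs therefore cannot be told apart from one of extraction. By the labels no other treatment differed between the groups, and the sample descriptions speak of whole root and whole shoot while the extraction protocol names root tips and shoot tips.

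When soil dries, plants make abscisic acid (ABA), a hormone that closes stomata and switches on genes for protection from dehydration. Its level depends on synthesis from carotenoids and on breakdown by ABA 8'-hydroxylases. Root and shoot carry different tasks under drought. The root takes up water through membranes that hold aquaporins, while the shoot loses water and fixes carbon, so the same gene can be used differently in the organs.

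Depth was 14376065 to 22800079 reads on genes in root libraries and 17429395 to 27769527 in shoot libraries, and no member had fewer than 4 reads in any library. Relative to column totals, the median log2 fold change of WD over C over the 16464 genes was 0.03 in root and -0.13 in shoot, so changes in shoot are read against a general shift of that size. By the selection limits, 2.44% of the 16464 genes were lower and 4.22% higher in WD root, and 12.6% were higher and 23.7% lower in WD shoot. With TMM scaling over all 12 libraries the split in shoot was 2707 genes higher and 3302 lower, against 2073 higher and 3900 lower with column totals. As a check of the organ labels, CPM was summed over 28 genes whose annotation held photosynthesis terms, among them plastocyanin domain-containing proteins. The sum was 9803 to 14415 CPM in WD shoot and 6012 to 11406 CPM in C shoot. In root it was 143, 188 and 365 CPM in WD and 86.9 to 127 CPM in C. Between 2 and 4 of the 28 were at 0 reads in a WD root library and between 2 and 7 in a C root library. The sum was thus higher in every WD root library than in any C root library, and its part in the root results was not tested. Annotation was available mainly for genes that the authors called as changed in these libraries, so this difference can follow in part from the list.

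**Figure D1:**
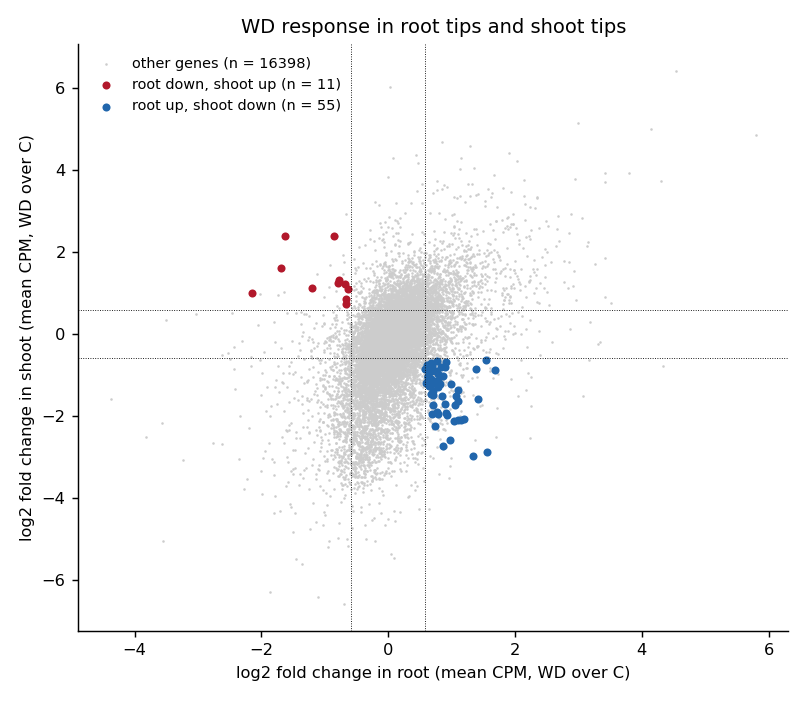
Each point is a gene with a mean CPM of at least 1 in both C groups, with its log2 fold change of WD over C in root on the x axis and in shoot on the y axis. Dotted lines mark 1.5-fold, the 11 red genes lie in the upper left and the 55 blue genes in the lower right, and grey genes inside these corners had overlapping libraries.

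The 11 genes that were lower in WD root but higher in WD shoot included 8 with an annotation, of which 6 were enzymes and 2 transcription factors, and the median size of their fold was 1.73 in root and 2.32 in shoot. The fold in root ranged up to 4.41 and the fold in shoot up to 5.26, and 4 of the 11 were at least 2-fold apart in both organs. The shoot fold was the larger for 8 of the 11.

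The best known of them in drought is VIT_02s0087g00710, an ABA 8'-hydroxylase of the CYP707A family, which starts the breakdown of ABA. It lies on chromosome 2 at 18248755 to 18251419 in the deposited tables. The study measured this gene by PCR as well, and the designed primers are shown because they are the transcript sequence on which that separate measurement rests.
VIT_02s0087g00710 forward primer: aggccggtcgatcaatactttcca
VIT_02s0087g00710 reverse primer: gcgttccaggaatgtttatgggca
In the sequencing libraries, CYP707A had 73.7, 88.3 and 74.6 CPM in WD shoot, against 21.6, 11.2 and 12.1 CPM in C shoot. The groups were far apart, and the lowest WD shoot library was 3.41-fold above the highest C shoot library, the widest gap in shoot among the 11 genes. In root it had 47.0, 45.9 and 49.3 CPM in WD, against 54.1, 63.5 and 139.9 CPM in C. The WD root libraries were nearly equal and lay just below C, whose replicate 3 stood alone. The fold was 5.26 in shoot and 1.81 in root, and without C root replicate 3 the root size was 1.24, under the limit. In C vines CYP707A was therefore read more in root than in shoot, with a log2 of root over shoot of 2.35 on TMM-scaled CPM, and in WD vines less, with -1.02.

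NGA1 (VIT_02s0025g03000, chromosome 2, 2549059 to 2551345) is annotated as NGATHA1, a B3-type transcription factor that in Arabidopsis shapes leaves and carpels and acts on ABA synthesis under dehydration. It had 2.37, 1.83 and 2.5 CPM in WD root, against 9.0, 12.7 and 7.80 CPM in C root. Every C root library was at least 3.12 times as high as any WD root library, the widest gap in root among the members. In shoot it had 34.4, 47.3 and 47.0 CPM in WD, against 29.1, 13.4 and 21.6 CPM in C. These groups were close, with WD replicate 1 next to C replicate 1. The fold was 4.41 in root and 2.01 in shoot, and NGA1 was the only one of the 66 that was at least 4-fold apart in root. Another gene of the same annotation, VIT_15s0048g02370, was also lower in WD root by the limits, with a mean of 10.1 CPM against 16.2 CPM in C root. In shoot it averaged 13.6 CPM in WD and 18.4 CPM in C and did not meet the limits.

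VIT_13s0019g05250 encodes the chloroplast NADP-dependent malate dehydrogenase, which exports reducing power from the chloroplast as malate. It had 472, 483 and 477 CPM in WD shoot, against 258, 194 and 203 CPM in C shoot. The WD shoot libraries were almost identical, and the mean was 477 ± 5.09 CPM in WD and 218 ± 34.4 CPM in C (SD, n = 3 each). In root it had 16.4, 18.6 and 7.15 CPM in WD, against 33.1, 23.7 and 40.6 CPM in C. It was far lower in root than in shoot. Its order in root was opposite to that of the summed photosynthesis genes given above, and a link was not tested. The most read genes of that sum in C root were annotated as plastocyanin domain-containing. VIT_09s0018g00520 averaged 21.5 CPM in WD root, against 36.1 CPM in C root, and VIT_11s0037g00290 averaged 29.5 CPM, against 27.7 CPM. The fold was 2.31 in root and 2.19 in shoot.

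Other members of this direction were oxygenases. VIT_18s0001g13790, annotated as cytochrome P450 83B1, an enzyme of glucosinolate and auxin precursor metabolism in Arabidopsis, had 10.9, 29.9 and 17.7 CPM in WD shoot, against 5.86, 1.73 and 3.52 CPM in C shoot. In root it had 0.696, 1.49 and 0.614 CPM in WD, against 2.07, 2.62 and 3.96 CPM in C. The groups stayed apart in both organs, with a fold of 3.09 in root and 5.26 in shoot, although the root values rest on few reads. VIT_00s0555g00020, annotated as a flavonoid 3-monooxygenase, which hydroxylates the flavonoid ring, had 20.4, 26.4 and 19.8 CPM in WD root, against 69.9, 115 and 29.7 CPM in C root. C root was widely spread, from just above WD to several times its level. In shoot this gene had 21.2, 22.1 and 19.9 CPM in WD, against 12.1, 1.69 and 6.95 CPM in C, so that WD root and WD shoot stood at nearly the same CPM. Its fold was 3.22 in root and 3.05 in shoot. Without C shoot replicate 1 the shoot fold was 4.87, and without C shoot replicate 2 it was 2.21. Without C root replicate 2 the root fold was 2.24.

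The other annotated genes of this direction were nearer to the fold limit in root. NDA2 (VIT_00s0301g00090), an alternative NAD(P)H dehydrogenase that passes electrons into respiration without pumping protons, had 13.6, 12.9 and 7.19 CPM in WD root, against 13.8, 14.6 and 29.9 CPM in C root. WD replicate 1 and C replicate 1 were almost equal, and without C root replicate 3 the size of the root fold was 1.27, beside 1.73 with it. In shoot NDA2 had 1.98, 3.78 and 4.70 CPM in WD, against 1.60, 1.58 and 1.21 CPM in C, a fold of 2.38. An alcohol dehydrogenase (VIT_14s0068g01760), of the enzymes that interconvert aldehydes and alcohols, averaged 26.8 ± 9.31 CPM in WD root, against 42.5 ± 7.11 CPM in C root, and 22.6 ± 1.17 CPM in WD shoot, against 13.7 ± 2.14 CPM in C shoot (SD, n = 3 each). Without WD root replicate 3 its root fold was 1.33. A MYB domain transcription factor (VIT_19s0015g01280), was near the minimum, with 1.07 ± 0.222 CPM in WD root, against 1.72 ± 0.311 CPM in C root (SD, n = 3 each). In shoot it averaged 2.34 ± 1.39 CPM in WD and 1.01 ± 0.118 CPM in C (SD, n = 3 each), and its fold was 1.60 in root and 2.32 in shoot. Its model overlaps neighbouring models on both sides, so its reads are uncertain.

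VIT_15s0046g01460, VIT_02s0025g01790 and VIT_11s0118g00080 had no annotation in the tables used. Their mean CPM was 3.78 to 11.3 in WD root and 5.98 to 17.5 in C root, and 2.32 to 10.9 in WD shoot and 1.29 to 5.14 in C shoot. The last of them was nearest to the limit, with a fold of 1.55 in root and 2.12 in shoot. Just outside, VIT_11s0016g05230, annotated as an allyl alcohol dehydrogenase, had a fold of 8.18 in root and 1.40 in shoot. VIT_13s0019g01080 had 1.39 in root and 1.43 in shoot, and VIT_10s0003g01030 had 1.38 in root and 4.37 in shoot. Altogether 27 genes met every condition of this direction but the fold.

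**Figure D2:**
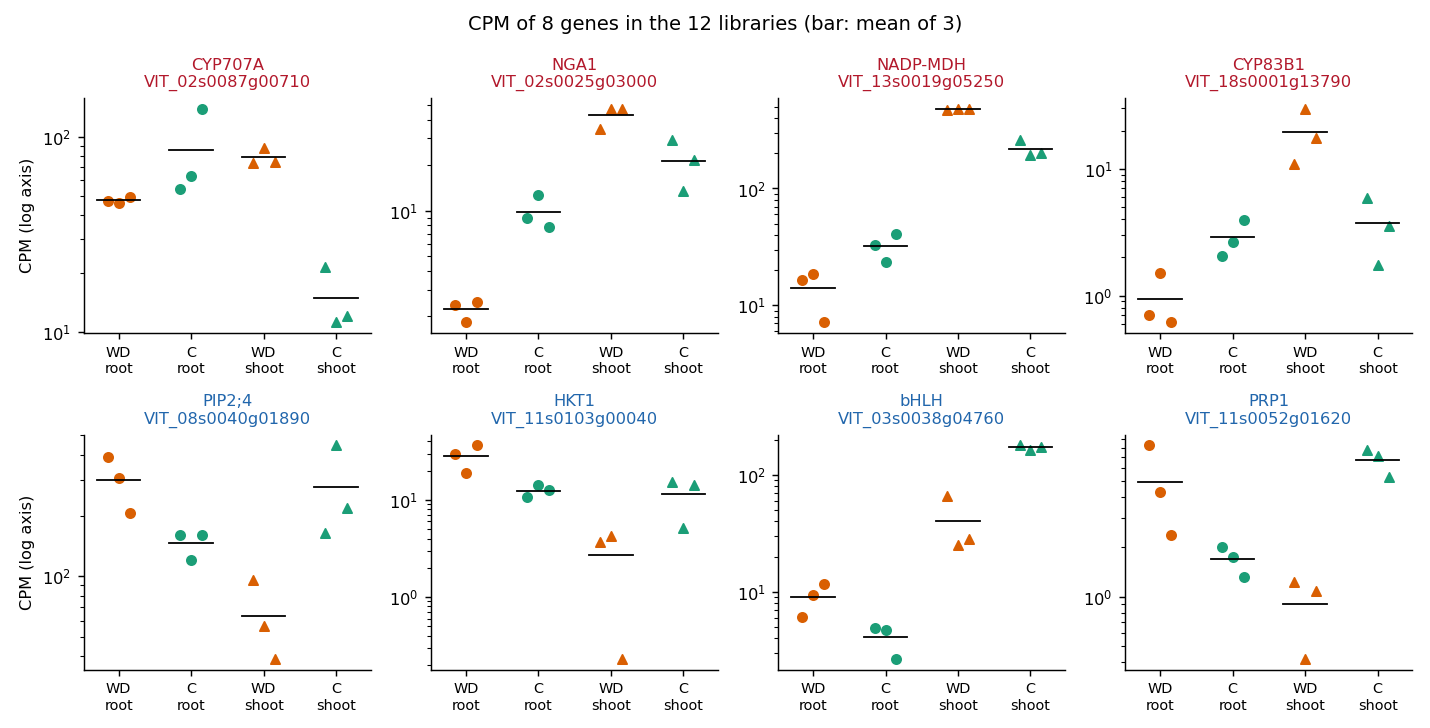
CPM of 8 genes in each library on log axes, for WD root and C root, WD shoot and C shoot, with circles for root, triangles for shoot and a bar for the mean of 3 libraries. The upper 4 genes were lower in WD root but higher in WD shoot, and the lower 4 the reverse, with C root replicate 3 alone at 139.9 CPM for CYP707A and WD shoot replicate 3 alone at 0.229 CPM for HKT1.

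The 55 genes that were higher in WD root and lower in WD shoot included a plasma membrane aquaporin, an ion transporter and an ABC transporter, beside transcription, defence and proteolysis genes. Their median size of fold was 1.72 in root, within 1.5 to 3.21, and 2.34 in shoot, within 1.55 to 7.87. The shoot fold was the larger for 48 of the 55, and 11 were at least 2-fold apart in both organs. Of the 55, 10 had an annotation with a function and 4 one as unknown, and 41 had none in the tables used. Those tables list mainly genes that the authors called as changed in root and a portion of those called in shoot. A missing annotation therefore does not tell whether a gene's function is known.

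The list of membrane transport, with 164 genes at the minimum CPM, held 3 members of this direction. The list of receptor kinases and disease resistance, with 149, held 2. As most members had no annotation, the lists are not ranked by these counts. Aquaporin PIP2;4 (VIT_08s0040g01890, chromosome 8, 12986519 to 12988082), a water channel of the plasma membrane, had 389, 308 and 205 CPM in WD root, against 159, 121 and 160.2 CPM in C root. All WD root libraries were above C, with replicate 3 nearest to it. In shoot PIP2;4 had 95.2, 56.3 and 38.7 CPM in WD, against 164, 447 and 219 CPM in C. C shoot was the more spread group, and its lowest library was 1.72-fold above the highest WD library. The fold was 2.05 in root and 4.36 in shoot. The log2 of root over shoot was 1.95 in WD and -1.01 in C, so the organ with the higher level was the root under WD and the shoot in C.

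HKT1 (VIT_11s0103g00040), annotated as a high-affinity potassium transporter and known in Arabidopsis for taking sodium out of the xylem, had 29.9, 19.0 and 36.4 CPM in WD root, against 10.6, 14.2 and 12.6 CPM in C root. In shoot it had 3.71, 4.24 and 0.229 CPM in WD, against 15.1, 5.15 and 14.1 CPM in C. Groups were clear of each other in root, while in shoot C replicate 2 lay close to WD and WD replicate 3 was almost without reads. Its fold was 2.28 in root and 4.2 in shoot, and without WD shoot replicate 3 the shoot fold was 2.88. ABC transporter G member 3 (VIT_02s0087g00840), of a family that exports waxes, hormones and other compounds across membranes, had 47.6, 57.8 and 97.7 CPM in WD root, against 34.3, 33.7 and 26.5 CPM in C root. In shoot it had 10.2, 9.88 and 15.4 CPM in WD, against 19.5, 44.3 and 28.2 CPM in C. The nearest WD and C libraries were 1.39-fold apart in root and 1.27-fold in shoot, and the fold was 2.15 in root and 2.59 in shoot. VIT_01s0011g02730 and VIT_18s0072g01220, of the same annotation, were also higher in WD root by the limits. In shoot they averaged 45.6 and 37.8 CPM in WD, against 39.8 and 26.6 CPM in C, and did not meet the limits.

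Regulatory genes of this direction were a basic helix-loop-helix transcription factor and a protein with the repeats of RCC1, which in animals and yeast exchanges the nucleotide of the nuclear transport protein Ran. The bHLH gene (VIT_03s0038g04760) had 66.7, 25.3 and 28.5 CPM in WD shoot, against 180.0, 165 and 174 CPM in C shoot. C shoot was tight and every WD shoot library well below it. In root it had 6.12, 9.29 and 11.5 CPM in WD, against 4.87, 4.68 and 2.64 CPM in C, a fold of 2.21 against 4.31 in shoot. The root level was a small portion of that in shoot. The summed photosynthesis genes were also highest in WD root replicate 3, at 365 CPM, and a link with the bHLH gene was not tested. The RCC1 gene (VIT_04s0079g00290) had 16.4, 6.42 and 5.75 CPM in WD root, against 4.29, 3.65 and 3.40 CPM in C root. WD root replicate 1 stood above the others, and without it the root fold of 2.52 was 1.61. Its shoot values were 1.27, 1.72 and 0.688 CPM in WD, against 4.88, 13.3 and 10.8 CPM in C, and its shoot fold of 7.87 was the highest among the 66 genes.

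Defence and signalling genes were also present. Pathogenesis-related protein 1 (VIT_11s0052g01620), a small secreted protein that accumulates in plant defence, had 8.28, 4.32 and 2.37 CPM in WD root, against 2.01, 1.73 and 1.32 CPM in C root. In shoot it had 1.22, 0.419 and 1.09 CPM in WD, against 7.71, 7.09 and 5.32 CPM in C, where the gap of 4.35-fold between the nearest libraries was the widest of all members. WD root was spread over a wide range and WD shoot was uniformly low, with a fold of 2.95 in root and 7.37 in shoot. A more abundant gene of the same annotation, VIT_11s0052g01650, had a higher mean in WD in both organs, though it met the limits in neither. It averaged 112 CPM in WD root, against 41.8 CPM in C root, and 561 CPM in WD shoot, against 234 CPM in C shoot. The SHR5-receptor-like kinase (VIT_12s0055g00590), named for a sugarcane receptor kinase that responds to bacteria living in the plant, had 55.7, 42.7 and 48.3 CPM in WD root, against 29.3, 32.7 and 20.8 CPM in C root. Its shoot values were 1.73, 1.58 and 1.66 CPM in WD, against 2.01, 3.46 and 3.22 CPM in C. It was a root gene in both treatments and its differences were small, with a fold of 1.77 in root and 1.75 in shoot. SYTB (VIT_08s0040g01740), of the synaptotagmin type that binds lipid membranes, had 6.26, 21.2 and 5.88 CPM in WD root, against 3.34, 5.76 and 3.34 CPM in C root. C root replicate 2 all but reached WD replicates 1 and 3, and without WD root replicate 2 the root fold was 1.46. In shoot SYTB had 2.70, 2.80 and 2.64 CPM in WD, against 12.2, 6.45 and 5.86 CPM in C.

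Aspartyl proteases, enzymes that cut proteins with catalytic aspartates, differed among themselves in root. Of 5 annotated genes compared, 2 were higher and 3 lower in WD root by the selection limits, and all 5 were lower in WD shoot. The 2 that were higher in WD root were members. VIT_05s0020g00950 had 37.5, 22.6 and 54.1 CPM in WD root, against 16.1, 20.8 and 16.1 CPM in C root. Its CPM in shoot was 7.94, 5.27 and 0.746 in WD, against 16, 9.15 and 18.4 in C, and its shoot fold of 3.12 was 4.83 without WD shoot replicate 1. VIT_14s0060g00330, described after its values were seen, had 92.7, 55.3 and 124 CPM in WD root and 41.3, 55.1 and 46.4 CPM in C root. In shoot it had 25.0, 21.3 and 2.12 CPM in WD and 75.5, 36.1 and 78.5 CPM in C. For both, as for HKT1, WD replicate 2 was the WD root library nearest to C and C replicate 2 the C shoot library nearest to WD, while WD shoot replicate 3 was far below all others. The model of VIT_14s0060g00330 overlaps another, and strand use in counting was not stated, so its reads are uncertain.

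Genes without a functional annotation included the most read of this direction. VIT_03s0180g00070 had 468, 484 and 823 CPM in WD root, against 383, 323 and 396 CPM in C root. Shoot levels were 788, 605 and 434 CPM in WD, against 1260.3, 1373 and 1649 CPM in C. Its shoot groups were well apart at every replicate, whereas the root fold of 1.61 was 1.3 without WD root replicate 3. VIT_06s0004g08230 had 708, 351 and 413 CPM in WD shoot, against 1032, 852 and 889.6 CPM in C shoot. In root it had 56.5, 26.1 and 30.0 CPM in WD, against 25.7, 20.1 and 24.4 CPM in C, where WD replicate 2 and C replicate 1 were almost equal, and without WD root replicate 1 its root fold was 1.20.

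Among the 12 genes with the highest smaller fold of this direction were 4 more, annotated as unknown or not at all in the tables used. VIT_13s0073g00050 averaged 2.98 ± 0.577 CPM in WD root, against 1.39 ± 0.600 CPM in C root, and 21.4 ± 7.02 CPM in WD shoot, against 90.9 ± 56.3 CPM in C shoot (SD, n = 3 each). VIT_19s0014g04690 averaged 77.9 ± 20.1 CPM in WD root, against 39.0 ± 5.66 CPM in C root, and 21.1 ± 7.04 CPM in WD shoot, against 48.9 ± 7.18 CPM in C shoot (SD, n = 3 each). VIT_07s0005g01140 averaged 19.0 ± 4.83 CPM in WD root, against 9.17 ± 3.15 CPM in C root, and 1.79 ± 1.44 CPM in WD shoot, against 5.90 ± 1.45 CPM in C shoot (SD, n = 3 each). By the selection, their libraries did not overlap, and without WD shoot replicate 1 the shoot fold of VIT_07s0005g01140 was 5.88 in place of 3.30. VIT_04s0023g02160 averaged 8.91 ± 4.35 CPM in WD root, against 4.23 ± 0.094 CPM in C root, and 0.445 ± 0.237 CPM in WD shoot, against 1.26 ± 0.492 CPM in C shoot (SD, n = 3 each), with as few as 4 reads in a library.

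At the limit of this direction, VIT_10s0003g00460 had a fold of 1.5 in root and 1.80 in shoot, VIT_16s0022g02080 had 1.51 and 2.28, and VIT_01s0026g00260 had 1.53 and 1.70. Just outside it, VIT_13s0019g04050 had 1.61 in root and 1.498 in shoot. VIT_01s0127g00360 had 1.48 in root and 2.67 in shoot, and VIT_07s0031g02340 had 1.48 in root and 12.0 in shoot. In all 87 genes met every condition but the fold, more than met all of them.

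The organ with the higher level often differed between treatments, with the limit that RNA extraction also differed between organs. On CPM scaled by TMM over all 12 libraries, 2 of the 11 genes that were lower in WD root were read more in root than in shoot under WD, and 8 of the 11 in C. Of the 55 genes higher in WD root, 42 were read more in root under WD and 12 in C. The organ with the higher level differed between WD and C for 6 of the 11 and 30 of the 55, or 54.5% in each direction, beside 19.4% of all 16464 genes, which follows in part from the selection. The levels of root and shoot were closer in WD than in C for 7 of the 11 and 25 of the 55, or 63.6% and 45.5%, beside 38.9% of all 16464 genes.

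**Figure D3:**
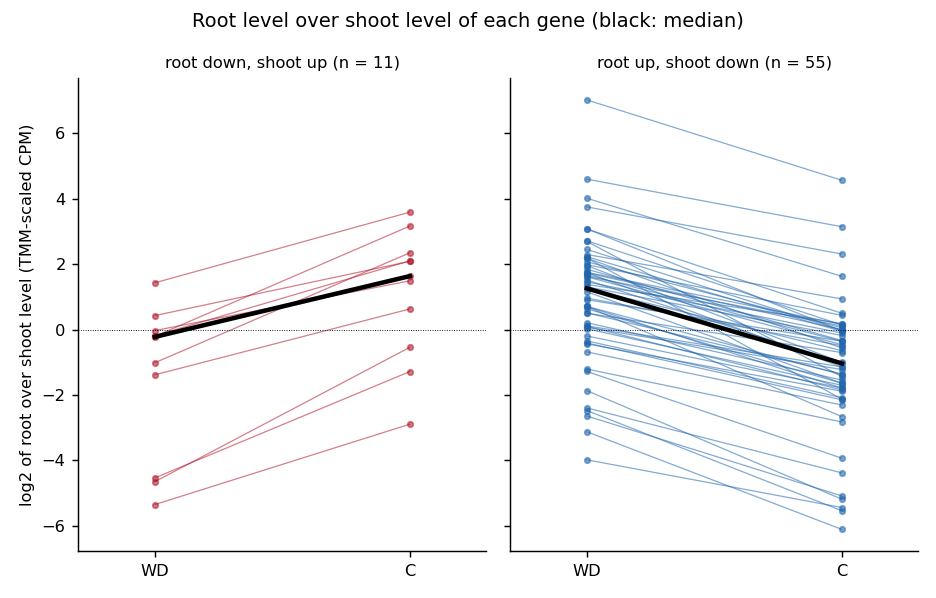
The log2 of root over shoot mean TMM-scaled CPM of each member in WD and in C, with a line for each gene and the median in black. The median was -0.23 in WD and 1.64 in C for the 11 genes on the left, and 1.26 in WD and -1.04 in C for the 55 genes on the right, where most lines cross 0.

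The libraries did not contribute equally. In root, WD replicate 3 was the farthest from C in both directions, with a median deviation from the root mean of -0.81 over the 11 genes and 0.54 over the 55 on the log2(CPM + 0.5) scale. C root replicate 3 was the farthest on the other side, at 0.57 and -0.54. The remaining root libraries were nearer to each other, WD replicate 2 at -0.12 and C replicate 2 at 0.21 over the 11 genes. In shoot, WD replicate 1 was the WD library nearest to C for 7 of the 11 and 36 of the 55 genes, and WD replicate 3 was the farthest in the median. The root libraries were close in many members, and the nearest WD and C root libraries were less than 1.1-fold apart for 5 of the 11 and 21 of the 55. In shoot this was so for 0 of the 11 and 7 of the 55.

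**Figure D4:**
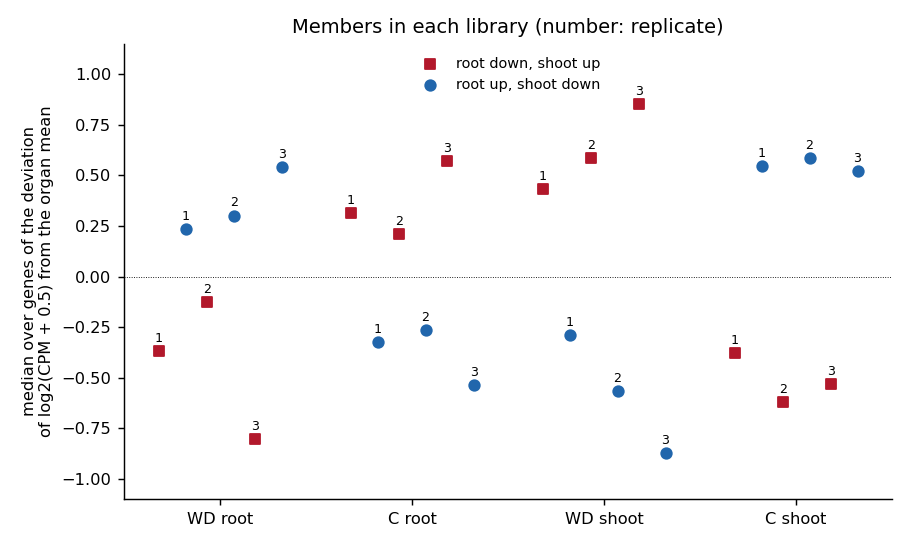
The median over members of the deviation of log2(CPM + 0.5) from the mean of the organ's 6 libraries, for each library, with squares for the 11 genes lower in WD root and circles for the 55 genes higher in WD root. Replicate 3 stands farthest out in WD root, C root and WD shoot, and the C shoot circles lie close together.

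When each library was left out in turn, the fold of mean CPM stayed at 1.5 or more in both organs for 5 of the 11 and 22 of the 55 genes. In root it went under 1.5 for 6 of the 11 and 31 of the 55, and in shoot for 0 of the 11 and 5 of the 55. The median SD over the members was 24.6% of the mean CPM in WD root and 26.2% in C root for the 11 genes, and 25.9% in WD root and 16.2% in C root for the 55, beside 22.4% in WD root and 15.2% in C root for all 16464 genes. In shoot it was 17.1% in WD and 15.8% in C for the 11 genes, and 32.2% in WD and 21.9% in C for the 55, beside 19.4% in WD and 18.1% in C for all genes.

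**Figure D5:**
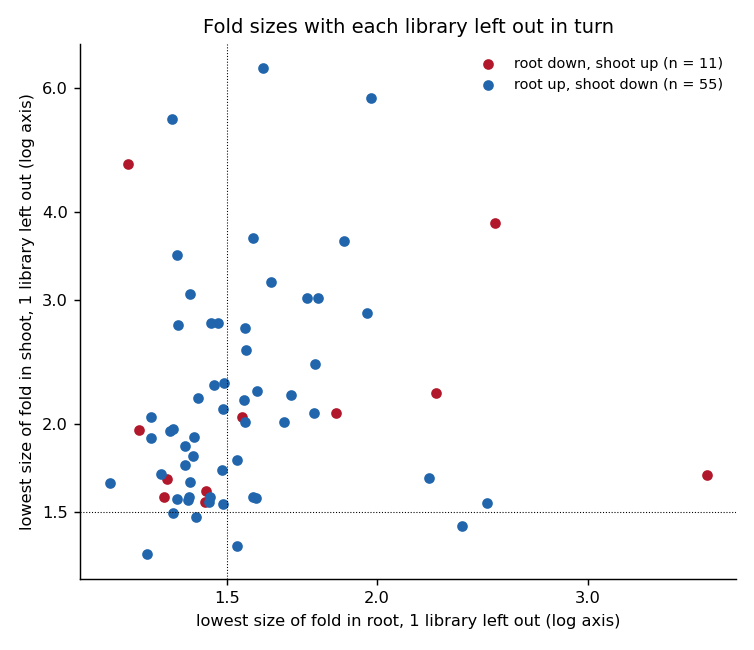
For each member, the lowest size of fold in root on the x axis and in shoot on the y axis that any single left-out library gave, on log axes, with dotted lines at 1.5-fold. Most genes left of the vertical line are above the horizontal one, and 5 red and 22 blue genes lie past both.

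For a single gene in 1 organ, the smallest two-sided p of an exact permutation test over 3 and 3 libraries is 0.1, and the comparisons over all genes used edgeR's quasi-likelihood test with Benjamini-Hochberg adjustment and a threshold of 0.05. In root it called 0 of the 66 members and 0% of 19545 genes, with 51 members and 1771 genes at an unadjusted p under 0.05, and DESeq2 called 7 of the 66 and 441 genes. In shoot edgeR called 7 of the 11 and 26 of the 55, beside 27.1% of 19569 genes. The interaction of organ and treatment was called for 2 of the 11 and 9 of the 55, beside 0.607% of 21267 genes. The methods describe root and shoot tips excised together from the vines of a replicate, but not whether equal numbers mark the same vines. With each combination of treatment and replicate number as a block, 23 of the 66 and 757 of all genes were called. The selection used these same contrasts, so nothing is read from the members' counts. The 2 were CYP707A and NGA1. Among the 9 were the bHLH, RCC1, ABC transporter and pathogenesis-related genes and VIT_19s0014g04690, and the remaining 4, named after their values were seen, were VIT_00s0337g00090, VIT_01s0146g00340, VIT_04s0023g02130 and VIT_13s0067g00330.

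Lists of annotated genes show how the annotated part of the pathways around the members differed. Of 22 genes annotated to ABA that had the minimum CPM, 12 were higher and 3 lower in WD root, 15 were higher and 2 lower in WD shoot, and 9 were higher and 2 lower in both. CYP707A was the only one in opposite directions. The median log2 fold change of these 22 was 1.26 in root and 1.02 in shoot, beside 0.03 and -0.13 for all 16464 genes and 0.45 and 0.86 for the 2093 annotated ones. Of 164 transport genes, 34 were higher and 19 lower in WD root, 94 were higher and 22 lower in WD shoot, 14 were higher and 12 lower in both, and PIP2;4, HKT1 and the ABC transporter were the 3 in opposite directions. Their median was 0.44 in root and 0.82 in shoot. Of 229 transcription factors, 49 were higher and 14 lower in WD root, 142 were higher and 11 lower in WD shoot, 32 were higher and 6 lower in both, and only the MYB and bHLH genes were in opposite directions by these limits, NGA1 not being matched by the list. Their median was 0.57 in root and 0.86 in shoot. Since the authors had called most annotated genes as changed in these libraries, the counts are not independent evidence of direction. The annotated genes also leaned toward genes higher in WD shoot, by the medians above. By the same limits, 12.6% of all 16464 genes were higher and 23.7% lower in WD shoot. The splits of the lists in shoot thus follow in part from which genes were annotated, and genes lower in WD shoot are underrepresented in them.

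The members were scattered over the genome. All 19 numbered chromosomes held between 1 and 6 of them, and 4 were placed on none. There were 3 pairs of members within 100 kb, all higher in WD root and lower in WD shoot. VIT_04s0023g02130 and VIT_04s0023g02160 lie 13.7 kb apart on chromosome 4, VIT_17s0000g07970 and VIT_17s0000g08000 lie 11.6 kb apart on chromosome 17, and VIT_10s0003g00440 and VIT_10s0003g00460 lie 9.1 kb apart on chromosome 10. Other gene models stand between the members of each pair. The models of 5 members overlap another model, where reads can be lost or misplaced.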

How the data were processed

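RNA from root tips and shoot tips was sequenced in 12 libraries. Per the paper's methods, the authors mapped cleaned single-end reads of 100 bases to the PN40024 assembly (TopHat2 2.0.8, Bowtie2 2.1.0) and deposited the raw counts that htseq-count gave per gene model. The RPKM values that the authors deposited came from Cufflinks and were an alternative only. Lines of the count tables that name no gene (23.5 to 30.9% of the total) were left out. The deposited organ comparisons by Cuffdiff (FPKM, fold changes, p-values and q-values) were not used. All columns per sample were assigned.

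CPM was the count divided by the sum of gene counts. Members and gene lists were chosen with earlier results of these data known. Named genes were, in each direction, the 12 with the largest smaller-of-both-organs change, members the paper identifies, up to 3 of each functional list with at least 2 members, the 3 with the highest CPM and the 3 nearest to the fold limit on either side, and unannotated genes were named only for size, level or the limit. Annotation came from supplementary gene tables of the paper, not all complete as used here (2955 genes). Positions are those of the deposited tables. No sequence other than the primers was used. Genes were fitted with edgeR 4.0.16 in R 4.3.3 (TMM, filterByExpr, robust), within organ and as an interaction over all libraries. DESeq2 1.42.0 was an alternative, with total counts, no low-count filter, the replicate number as a block and each library left out. For the selection the alternatives were TMM and upper-quartile scaling, RPKM, other minimum and fold limits, median CPM, thinning, same-numbered libraries and each library left out. The code was tested on simulated counts. Replicates of a group differed by more than sampling noise, and p-values measure the spread between these pooled samples.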

Additional observations from a re-analysis of the deposited data

Results flagged for a closer look

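The response to WD differed between root and shoot by edgeR's interaction test (Benjamini-Hochberg adjustment over 21267 genes, threshold 0.05) for 11 of the 66 members, beside 0.607% of all genes. The members were selected for opposite responses in these libraries, so the count adds nothing to the selection. It was 0 when any 1 of 7 libraries was left out, among them each C root library.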

How the results depend on the processing

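The number of genes lower in WD root but higher in WD shoot, 11, was 6 with a minimum of 5 CPM, 24 with no minimum, 4 at a fold limit of 2 and 23 when same-numbered libraries were compared as a replicate block. It was 12 to 22 with a library left out. The number higher in WD root and lower in WD shoot, 55, was 34 with TMM scaling, 33 with RPKM, 33 with a minimum of 5 CPM, 95 with no minimum, 11 at a fold limit of 2 and 94 with the replicate block. It was 59 to 144 with a library left out, the highest without WD root replicate 1. Other scalings and limits stayed within 1.5 times the counts. Of the members, 10 of 11 and 34 of 55 were kept with TMM, and 7 of 11 and 25 of 55 with RPKM. Without C root replicate 3, 6 of 11 and 42 of 55 were kept.

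Members called in root numbered 7 with DESeq2 and 0 in every edgeR alternative. In shoot edgeR called 33, and with a library left out 2 to 33, the fewest without WD shoot replicate 2, then 4 without C shoot replicate 3, 12 with C shoot replicate 2 removed and 14 when WD shoot replicate 3 was left out. For the interaction, 11 members were called, 58 with DESeq2, 25 with total counts, 23 with the replicate block and 0 to 41 with a library left out, the most without WD shoot replicate 1. The causes were not tested. Same-numbered WD and C libraries did not deviate together in root (correlations -0.54 to -0.08) or in every pair in shoot (-0.14 to 0.12). Unlike-numbered WD and C root libraries correlated at -0.53 to 0.57. With 3 libraries per group, whose deviations from their mean offset each other, these values cannot tell whether the numbers pair them. Same-numbered root and shoot libraries correlated at 0.02 to 0.37 in WD and -0.03 to 0.23 in C, so not every pair deviated together. Root and shoot libraries of unlike numbers correlated lower in part, at -0.41 to 0.19 in WD and -0.22 to 0.17 in C. Whether equal numbers mark the same vines was not tested. All 638 recomputed log2 fold changes of the 29 named members kept their direction, and 24 moved by more than 1 SD. Depth limits members near 1 CPM, whose libraries hold few reads.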
